A study of Mus musculus with 6 samples.

Results

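Heat shock proteins and their co-chaperones were followed in mouse lung RNA: 50 genes of the 19935 measured by a probe set with exactly 1 gene symbol. They were chosen by name alone, as symbols that begin with Hspa, Hspb, Hsph, Hsp90, Dnaja or Dnajb, the numbered Bag genes, Hspd1, Hspe1 and Hsf1. For a gene with several probe sets the brightest over the 6 arrays was taken. Hspa1b, Hsp90ab1 and Hsf1 were not measured alone and are not analysed here. The name catches genes of other function too, such as Hspb11, a subunit of the intraflagellar transport machinery.

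Total RNA of whole lung was hybridised to Affymetrix gene arrays for 3 samples of Scnn1b-Tg mice and 3 of wild type (WT) mice, both of the C57BL/6 background. The study looked for candidate genes of emphysema. Scnn1b is the gene of a subunit, β, of the channel that takes up sodium across airway surfaces, and in the Scnn1b-Tg strain it is known to be driven in airway secretory cells by the Scgb1a1 promoter. The labels used here give no age, sex or batch. They do not call the samples separate animals either, so the p-values reflect only the spread between these samples, which may be technical.

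Heat shock proteins are molecular chaperones, which bind unfolded proteins, keep them from clumping and help them to fold. HSP70 proteins do this in cycles of ATP use, started by J proteins (the Dnaj genes) and ended by nucleotide exchange factors such as several Bag proteins and HSP110, and HSP90 proteins take over many of their clients. When proteins unfold, in heat or oxidative stress, the transcription factor HSF1 binds repeats of GAA and TTC in the promoters of an inducible subset and raises their RNA quickly. Other members are made steadily, in the cytosol, the mitochondria or the endoplasmic reticulum, or mainly in muscle or testis.

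The arrays were alike in scale, with median intensities of 47.6 to 48.5 and lowest values of 18.3 to 18.6. Scnn1b stood at 1405, 1527 and 1333 on the Scnn1b-Tg arrays, against 172.1, 108.3 and 138.8 on the WT arrays, as the labels state (log2 fold change 3.37 ± 0.16, SE; adjusted p = 0.00241, limma). The arrays carried lung markers: alveolar type 2 markers summed to 15490 to 16320 on the Scnn1b-Tg arrays and 14660 to 16670 on the WT arrays, while 6 male germ cell markers summed to 161.0 to 171.8 on the Scnn1b-Tg arrays and 164.6 to 171.8 on the WT arrays. In bulk lung RNA, fewer cells of a type and less RNA per cell cannot be told apart. Scnn1b-Tg replicate 3 and WT replicate 2 stood apart from the other arrays: limma's array weights were 0.6003 and 0.664 for them, the lowest of the 6. Results that rest on WT replicate 2 are therefore given with and without it.

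Of the 50 members, 27 had a mean intensity of 100 or more, 11 of under 50 and 2, Dnajb3 and Dnajb7, of under 25, close to the lowest value on an array. Intensities of different probe sets were not set against each other as RNA levels. All 50 entered the fit, since no filter on low values was applied.

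Among the members, one wild-type sample stood out: the classic stress-inducible chaperones were highest on WT replicate 2. A group of 11 measured members, called core inducible chaperones here, is known from other work to respond to HSF1 or to heat: Hspa1a, Hspa8, Hsph1, Hsp90aa1, Dnajb1, Dnaja1, Dnajb4, Hspb1, Bag3, Hspd1 and Hspe1. The group was listed with earlier results of these data known, so its contrast with the other members is a description, not independent evidence. By the brightest probe sets, WT replicate 2 was the highest of the 6 arrays for 10 of these 11 (90.9%). It was the highest for 14 of the 39 other members (35.9%), and so for 24 of all 50 members. The count of 10 includes Hspd1 and Hspe1, whose other probe set was highest elsewhere, on WT replicate 3 and Scnn1b-Tg replicate 3. Among all genes measured WT replicate 2 was the highest for 19.2%. Among the 6038 genes with a mean intensity of 100 or more it was the highest for 15.2%, against 18 of the 27 members of that brightness. Scnn1b-Tg replicate 3, the other array that stood apart, was the highest for 10 of 50 members, close to its share of all genes, 22.3%. Among genes with a mean intensity of 100 or more it was the highest for 34.6%, against 5 of the 27 members of that brightness (18.5%).

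Hspa1a, the inducible HSP70, had the widest spread. Its intensity was 90.1, 93.3 and 84.5 on the Scnn1b-Tg arrays, against 68.9, 210.5 and 90.2 on the WT arrays. The 3 Scnn1b-Tg arrays and WT replicates 1 and 3 lay close together, and WT replicate 2 was 2.26 times the next highest array. Hsph1, the HSP110 that exchanges the nucleotide of HSP70, stood at 289.8, 326.5 and 262.3 on the Scnn1b-Tg arrays, against 225.4, 487.9 and 274.2 on the WT arrays. WT replicate 2 was again alone, at 1.49 times the next highest array, and WT replicate 1 was the lowest of all 6. Dnajb1, the main J protein partner of stress-induced HSP70, had 142.4, 153.0 and 151.9 on the Scnn1b-Tg arrays, against 131.6, 216.2 and 155.5 on the WT arrays, with WT replicate 2 at 1.39 times the next.

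Hsp90aa1, the inducible cytosolic HSP90, stood at 1035, 1201 and 994.0 on the Scnn1b-Tg arrays, against 923.9, 1465 and 1123 on the WT arrays. Hspb1, the small heat shock protein that holds unfolding proteins and actin filaments, had 131.3, 151.1 and 149.9 on the Scnn1b-Tg arrays, against 128.4, 200.0 and 135.4 on the WT arrays. Both were highest on WT replicate 2, by 1.22 and 1.32 times the next array, and lowest on WT replicate 1. Dnaja1, a cytosolic J protein, stood at 622.7, 652.6 and 586.8 on the Scnn1b-Tg arrays, against 584.6, 877.3 and 688.9 on the WT arrays. Dnajb4, another J protein of HSP70, had 508.8, 534.0 and 590.2 on the Scnn1b-Tg arrays, against 532.7, 684.1 and 581.1 on the WT arrays. In both the WT replicate 2 value lay above the other 5, while those 5 overlapped between the genotypes.

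Of the remaining core members, Hspd1 and Hspe1 had WT ranges close to that of Dnajb4, and those of Hspa8 and Bag3 were narrower. Hspa8, the constitutive HSP70 that is also induced by heat, had 2740, 2802 and 2564 on the Scnn1b-Tg arrays, against 2515, 3014 and 2692 on the WT arrays, so WT replicate 2 exceeded the next array by only 1.08 times. Hspd1, the barrel of the mitochondrial chaperonin, stood at 319.4, 323.6 and 346.0 on the Scnn1b-Tg arrays, against 284.0, 377.6 and 329.3 on the WT arrays. Its lid Hspe1 had 272.3, 252.8 and 353.9 on the Scnn1b-Tg arrays, against 272.8, 359.8 and 269.1 on the WT arrays, and was the core member with the widest spread among Scnn1b-Tg arrays. For Hspe1, Scnn1b-Tg replicate 3 and WT replicate 2 were nearly equal and stood above the other 4. Bag3, which links HSP70 to small heat shock proteins and to autophagy, was the 1 core member not highest on WT replicate 2, with 105.6, 121.9 and 124.5 on the Scnn1b-Tg arrays, against 104.2, 110.4 and 116.4 on the WT arrays.

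**Figure D1:**
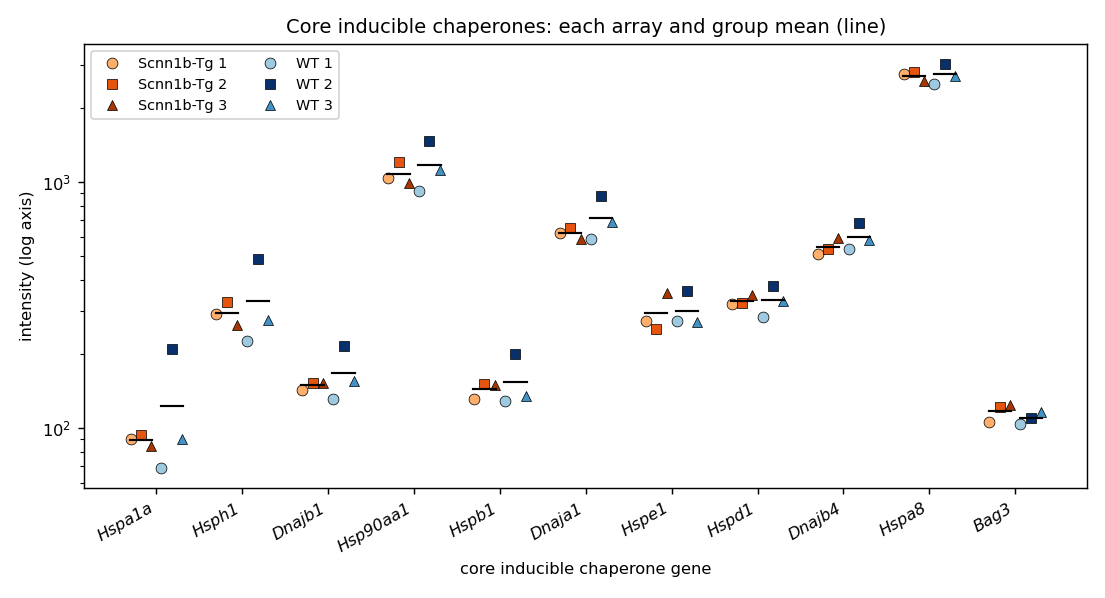
Intensity (log axis) of the 11 measured core inducible chaperones on each array, Scnn1b-Tg (orange) left of WT (blue) for each gene, with horizontal lines for group means. The dark blue square, WT replicate 2, is the highest point for 10 genes and lies among the others for Bag3. For Hspa1a the Scnn1b-Tg arrays reach 93.3 at most, and WT replicate 2 stands at 210.5.

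Several of these genes are read by more than 1 probe set. All 3 probe sets of Hsp90aa1, all 3 of Hspa8, both of Dnaja1 and both of Hspb1 were highest on WT replicate 2, while 1 of 2 was for Hspd1 and 1 of 2 for Hspe1. The log2 range over the WT arrays was 0.60 to 0.67 over the probe sets of Hsp90aa1, 0.64 to 0.69 for Hspb1 and 0.59 to 0.83 for Dnaja1. It was 0.26 to 0.32 for Hspa8, 0.40 to 0.42 for Hspe1 and 0.22 to 0.41 for Hspd1, whose probe sets differed most in this respect: WT replicate 2 was 1.24 times the mean of the other WT arrays by 1 and 1.05 times by the other. Probe sets of a gene share its RNA and are not replicates. Hspa1a has a near-identical neighbour, Hspa1b, and genes such as Hspa8, Hsp90aa1, Hspd1 and Hspe1 have close copies or pseudogenes. How far these add to the signals is uncertain.

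The promoters of these genes are shown because binding of HSF1 is known to need its element there. The element is built from inverted GAA units, so a pair was searched as GAANNTTC or TTCNNGAA, and 3 units in a row as GAANNTTCNNGAA or TTCNNGAANNTTC, where N is any base. Both strands were searched, each pair being its own reverse complement, and a run of 3 units also holds pairs. The search covered the RefSeq promoter windows of the mouse build GRCm38.p6, 250 bases before to 50 bases after a gene's start. In the sequences, written 5′ to 3′ on the strand named, capitals mark the GAA and TTC units of each match. For Hspa1a (chr17:34972157-34972306, minus strand), Hsph1 (chr5:149636337-149636486, minus strand) and Hspb1 (chr5:135887769-135887918, plus strand) these are the 150 bases before the start. For Hspd1 and Hspe1, which are transcribed away from each other, it is the stretch of 215 bases between the starts of their windows (chr1:55087933-55088147, plus strand). The Hspd1 window is one that held 3 units in a row. The RefSeq bounds of Hspd1 and Hsph1 reach further out, to 55088243 and 149636498. By those bounds the stretches printed for them lie inside the genes.
Hspa1a: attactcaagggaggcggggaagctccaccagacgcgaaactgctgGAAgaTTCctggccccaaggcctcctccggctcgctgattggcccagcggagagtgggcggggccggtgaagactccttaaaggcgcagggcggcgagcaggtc
Hsph1: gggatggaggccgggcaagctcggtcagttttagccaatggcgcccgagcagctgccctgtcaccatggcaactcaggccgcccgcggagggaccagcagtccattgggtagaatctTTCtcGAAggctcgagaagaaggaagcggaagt
Hspb1: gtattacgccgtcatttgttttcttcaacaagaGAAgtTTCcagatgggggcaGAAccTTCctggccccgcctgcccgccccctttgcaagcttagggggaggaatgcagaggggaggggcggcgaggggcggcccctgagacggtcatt
Hspd1 and Hspe1: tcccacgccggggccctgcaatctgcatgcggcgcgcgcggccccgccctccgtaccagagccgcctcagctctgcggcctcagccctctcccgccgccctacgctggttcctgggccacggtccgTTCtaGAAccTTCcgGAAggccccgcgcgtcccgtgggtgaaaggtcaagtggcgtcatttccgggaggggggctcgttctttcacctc

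In the Hspa1a promoter the pair began 104 bases before the start, and in the Hspb1 promoter there were 2 pairs, which began 117 and 97 bases before it. In the Hsph1 promoter the pair shown began 33 bases before the start, and a run of 3 units began 36 bases after it, past the stretch printed. Another Hsph1 window has a different start, which puts the pair 54 bases before it and the run 15 bases after it. The stretch printed for Hspd1 and Hspe1 held 4 units in a row, and both genes' windows read it. Of the 50 members, 44 had a promoter window in the table. At least 1 pair was found in 13 of these 44 (29.5%), against 17.0% of all 27025 genes with a window, and 3 units in a row in 4 (Hsph1, Hspd1, Hspe1 and Dnajb6), against 0.662% of all genes. Among the 9 core members with a window 8 held a pair (Bag3, Dnaja1, Dnajb4, Hspa1a, Hspb1, Hspd1, Hspe1 and Hsph1) and Dnajb1 did not. Among the 35 other members with a window 5 did: Dnaja4, Dnajb6, Hspb3, Hspb6 and Hspb8. The core members were listed as known HSF1 or heat targets, so their share of matches is not independent of that choice. A match is letters in a window, not a bound site. Only exact units within the window were searched, so the lack of a match, as for Dnajb1, does not show that a gene lacks the element.

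Promoter matches and array values can be set side by side for the members outside the core group. The 5 with a pair had a median log2 range over the WT arrays of 0.24, with 2 highest on WT replicate 2. The 30 without a pair had a median range of 0.18, with 12 highest on WT replicate 2. Outside the core group the share that was highest on that array was the same with and without a pair. Dnaja4, a J protein with 2 pairs in its window, had 113.8, 130.3 and 107.8 on the Scnn1b-Tg arrays, against 119.9, 159.1 and 127.0 on the WT arrays. Hspb8, the small heat shock protein that works with Bag3, had 95.5, 95.7 and 90.9 on the Scnn1b-Tg arrays, against 74.0, 107.4 and 91.5 on the WT arrays. Both were highest on WT replicate 2. Hspb3, a small heat shock protein of muscle, was highest on WT replicate 3, with 34.0, 30.9 and 30.8 on the Scnn1b-Tg arrays, against 32.6, 31.6 and 35.9 on the WT arrays. Hspb6, found in smooth and heart muscle, had 55.2, 53.6 and 62.2 on the Scnn1b-Tg arrays, against 58.8, 53.3 and 54.3 on the WT arrays. It was lowest on WT replicate 2. Dnajb6, which keeps polyglutamine and other aggregating proteins soluble, had 3 units in a row and was highest on another array, with 72.7, 65.4 and 89.3 on the Scnn1b-Tg arrays, against 78.5, 74.9 and 66.3 on the WT arrays.

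**Figure D2:**
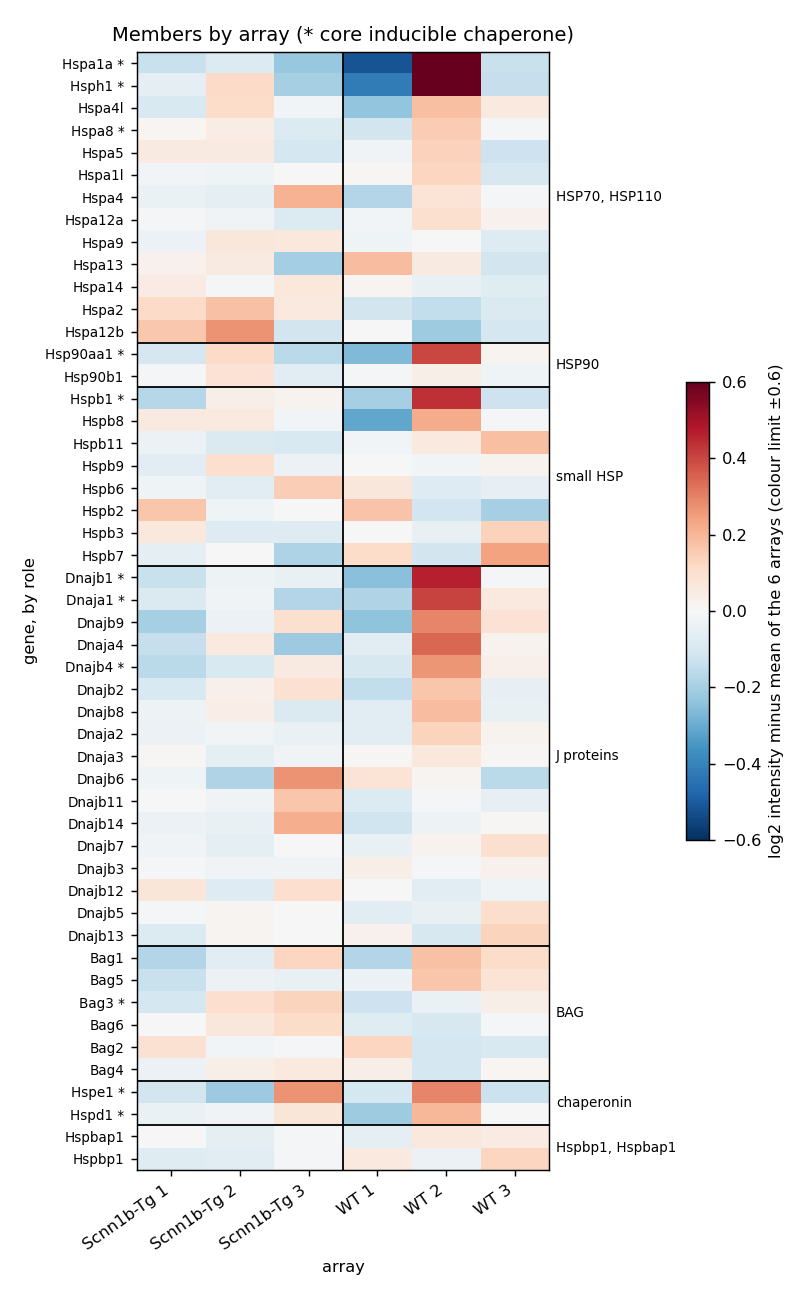
Log2 intensity minus the mean of the 6 arrays for each of the 50 members (rows, by role, core inducible chaperones starred) on each array (columns, Scnn1b-Tg left of WT). Colours stop at 0.6 in either direction, which Hspa1a and Hsph1 exceed on WT replicate 2. The red cells of that column fall mainly on starred rows and on J proteins.

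The spread of the members was unequal between the genotypes. Over the 3 WT arrays the median log2 range was 0.23 for all members and 0.59 for the core members, against 0.14 for all genes. Over the 3 Scnn1b-Tg arrays it was 0.15 for all members and 0.20 for the core members, against 0.13 for all genes. Over the Scnn1b-Tg arrays 0 of 50 members reached a range of 0.5, while 1.22% of all genes did. Over the WT arrays 8 of 50 members reached it, 6 of them core members, while 2.36% of all genes did and 4.19% of genes with a mean intensity of 100 or more. Those 8 were Hspa1a, Hsph1, Dnajb1, Hsp90aa1, Hspb1, Dnaja1, Hspb8 and Dnajb9. By the width of the WT range Hspa1a ranked 11 of 19935 genes, with a range of 1.61, and Hsph1 ranked 32, with 1.11. Dnajb1 ranked 142, Hsp90aa1 180, Hspb1 213 and Dnaja1 283. The Scnn1b-Tg arrays had the narrower range for 35 of 50 members (70.0%), and for 53.3% of all genes.

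**Figure D3:**
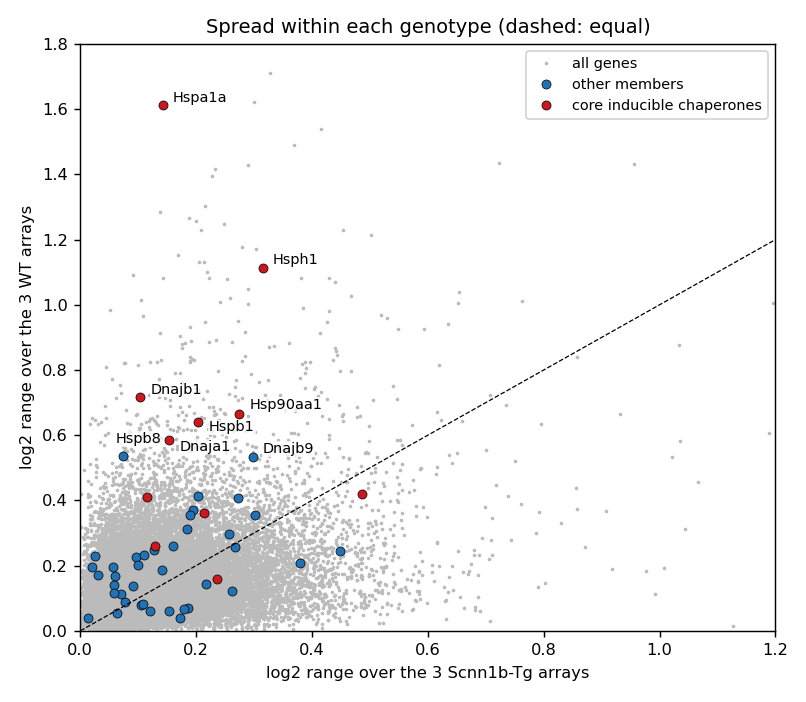
Each gene's log2 range over the 3 Scnn1b-Tg arrays (x axis) and over the 3 WT arrays (y axis), with all genes in grey, core inducible chaperones in red and other members in blue. Members with a WT range of 0.5 or more are named, and Hspa1a stands at 1.61 over WT but 0.14 over Scnn1b-Tg. A further 16 genes, none of them a member, lie outside the axes.

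The same arrays were often at both ends of the WT range. For 22 of 50 members, and for 9 of 11 core members, replicate 2 was the highest and replicate 1 the lowest of the 3 WT arrays, against 19.3% of all genes. WT replicate 1 was the lowest of all 6 arrays for 20 members (40.0%), 9 of them core members, against 16.9% of all genes. Among genes with a mean intensity of 100 or more it was the lowest for 12.0%, against 15 of the 27 members of that brightness. Averaged over the core members, the log2 deviation from the mean of the 6 arrays was -0.10, -0.01 and -0.03 on the Scnn1b-Tg arrays, against -0.23, 0.40 and -0.04 on the WT arrays. For the other 39 members it was -0.02, 0.0033 and 0.01 on the Scnn1b-Tg arrays, against -0.03, 0.03 and 0.0038 on the WT arrays. The total intensity over all genes was not higher on WT replicate 2: it was 2230000, 2264000 and 2298000 on the Scnn1b-Tg arrays, against 2268000, 2228000 and 2245000 on the WT arrays. By the submitters' notes the values come from RMA, a processing that commonly evens out the arrays. These totals could therefore not show a shift of a whole array.

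Other gene groups differed between the WT arrays as well. Cirbp and Rbm3 are RNA-binding proteins known to be induced by mild cold and lowered by heat. Cirbp had 241.3, 210.9 and 225.9 on the Scnn1b-Tg arrays, against 296.9, 207.2 and 208.1 on the WT arrays. Rbm3 had 1124, 1188 and 1257 on the Scnn1b-Tg arrays, against 1342, 875.3 and 1014 on the WT arrays. Both were highest on WT replicate 1 and lowest on WT replicate 2, the reverse of the order of the core chaperones there. For Cirbp, though, WT replicates 2 and 3 were nearly equal. The mean deviation of the 2 genes was largest on WT replicate 1, at 0.31, against -0.25 on WT replicate 2 and -0.14 on WT replicate 3. Of 11 measured genes of the circadian clock, 8 were highest on WT replicate 2, while 2, Arntl and Clock, were lowest there. Arntl had 82.1, 90.2 and 78.3 on the Scnn1b-Tg arrays, against 96.1, 47.9 and 105.0 on the WT arrays. The mean deviation of the 11, which pools genes that moved in opposite directions, was -0.13, -0.10 and 0.07 on the Scnn1b-Tg arrays, against -0.09, 0.30 and -0.05 on the WT arrays. Immediate early genes, such as Fos and Egr1, which respond within minutes to many signals, had their highest mean deviation elsewhere: -0.15, 0.29 and 0.10 on the Scnn1b-Tg arrays, against -0.21, 0.08 and -0.11 on the WT arrays. Within WT, though, 11 of these 15 genes were highest on replicate 2 and lowest on replicate 1, the order that 9 of the 11 core chaperones had.

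Club cell and smooth muscle markers differed on WT replicate 2 too. The 6 club cell markers summed to 9926, 10580 and 10600 on the Scnn1b-Tg arrays, against 11030, 13860 and 12580 on the WT arrays, and 5 of the 6 were highest on WT replicate 2. The 6 smooth muscle markers summed to 1495, 1677 and 1414 on the Scnn1b-Tg arrays, against 1808, 1158 and 1461 on the WT arrays, and 4 of the 6 were lowest on WT replicate 2. The 8 macrophage markers summed to 3857, 4098 and 3055 on the Scnn1b-Tg arrays, against 1928, 1727 and 1481 on the WT arrays. All 8 were higher in Scnn1b-Tg and none was highest on any WT array. Their sum on WT replicate 2 lay between those of the other WT arrays. The part of the cold-induced, clock, immediate early, club cell and smooth muscle genes in the chaperone values was not tested.

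**Figure D4:**
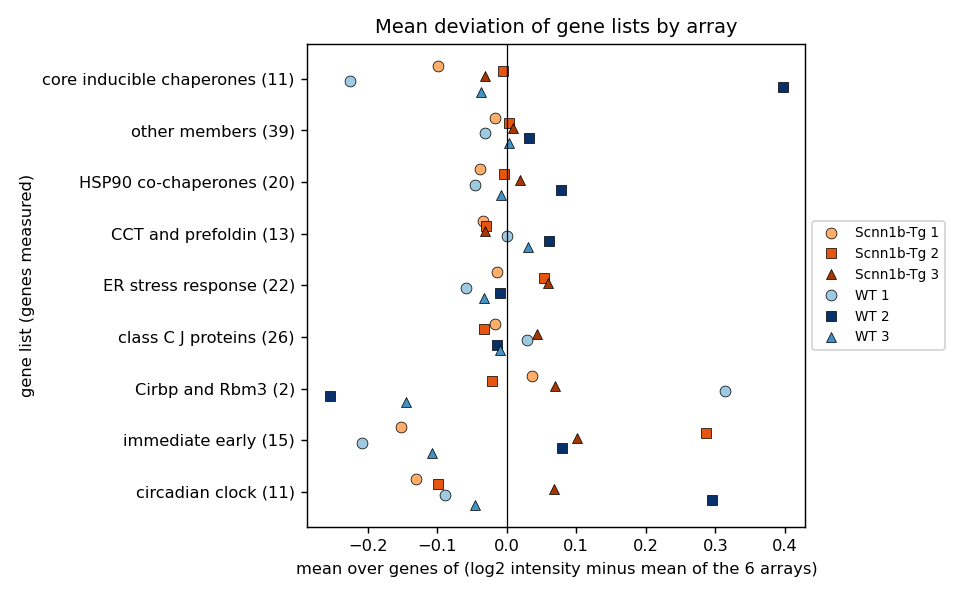
Mean deviation (log2 intensity minus the mean of the 6 arrays) of each gene list on each array, with Scnn1b-Tg points above WT points in each row. The core chaperones reach 0.40 on WT replicate 2 (dark blue square) and the circadian clock list 0.30. Cirbp with Rbm3 stand at -0.25 there and at 0.31 on WT replicate 1.

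The comparison of the genotypes asked whether the chaperones differ between Scnn1b-Tg and WT lung. In limma with Benjamini-Hochberg adjustment over all genes, 0 of 50 members passed an adjusted p of 0.05, in a comparison that called 0.00502% of genes, the gene Scnn1b. At an unadjusted p under 0.05, 2 members were higher in Scnn1b-Tg, Hspa2 and Bag6, against 3.96% of all genes, and 1 was lower, Hspb11, against 2.05%. All Scnn1b-Tg arrays lay above all WT arrays for 2 members (6.26% of all genes) and below them for 4 (4.41%). As shares of the 50 members these are 4% and 2% at an unadjusted p under 0.05, and 4% above and 8% below without overlap. By sign, 21 members were higher and 29 lower in Scnn1b-Tg, with a median log2 fold change of -0.03, against 0.0052 over all genes. Without WT replicate 2, 30 were higher and 20 lower, with a median of 0.03. Without WT replicate 1 instead, 15 were higher and 35 lower.

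The sign of most core members turned with WT replicate 2. With all arrays 2 of 11 were higher and 9 lower, with a median log2 fold change of -0.09, and without WT replicate 2 it was 9 higher and 2 lower, with a median of 0.09. Without WT replicate 1 instead, it was 1 higher and 10 lower. Leaving out a high WT array must raise the fold change, and leaving out a low one must lower it. Hspa1a averaged 89.3 ± 4.48 in Scnn1b-Tg and 123.2 ± 76.4 in WT (SD, n = 3 each), a log2 fold change of -0.29 with a 95% interval of -1.17 to 0.58 (adjusted p = 0.979). Without WT replicate 2 it was 0.18. Hsph1 averaged 292.9 ± 32.2 in Scnn1b-Tg and 329.2 ± 140 in WT (SD, n = 3 each), a log2 fold change of -0.09 with an interval of -0.72 to 0.53 (adjusted p = 0.995), and 0.23 without that array. In the same way Dnajb1 gave -0.14 ± 0.17 (SE) with all arrays and 0.06 without WT replicate 2, Hsp90aa1 -0.10 ± 0.16 and 0.08, and Hspb1 -0.08 ± 0.16 and 0.13. Dnaja1 kept its sign, at -0.19 ± 0.14 and -0.03. So did Dnajb4, at -0.13 ± 0.10 and -0.03, and Bag3, at 0.09 ± 0.08 and 0.09. Hspa8 gave -0.02 ± 0.08 with all arrays, Hspd1 0.0062 ± 0.10 and Hspe1 -0.04 ± 0.16, and without WT replicate 2 they gave 0.05, 0.11 and 0.10. The adjusted p-values of the core members lay between 0.927 and 0.998. The intervals are wide, so the data do not show that the genotypes were alike in these genes.

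**Figure D5:**
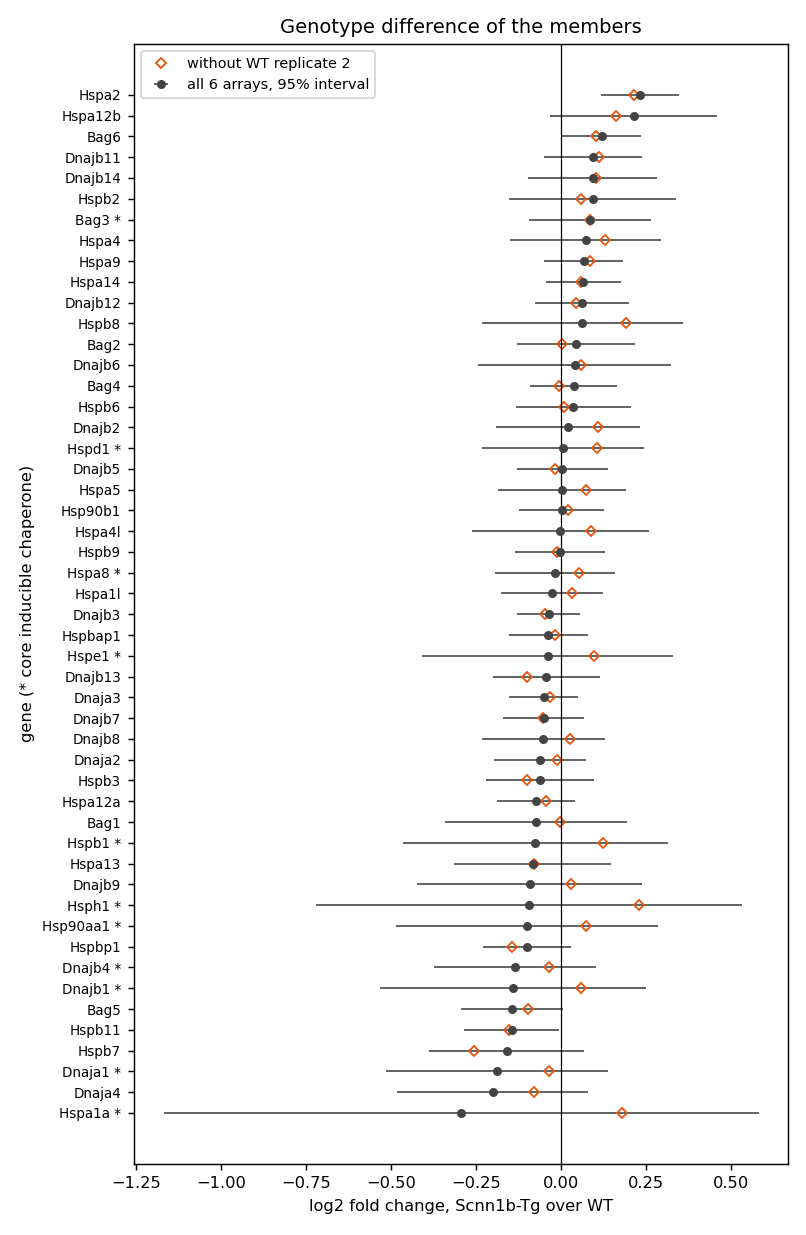
Log2 fold change, Scnn1b-Tg over WT, for each of the 50 members with all 6 arrays (filled, with the 95% interval of the limma fit) and without WT replicate 2 (open diamonds), core inducible chaperones starred. The interval of Hspa1a runs from -1.17 to 0.58, and its diamond stands at 0.18. Of the 11 starred genes, 9 have their diamond right of 0.

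Among the HSP70 genes outside the core group, Hspa2 had the smallest p of all members. Hspa2, an HSP70 best known from spermatocytes, had 71.0, 74.3 and 68.3 on the Scnn1b-Tg arrays, against 60.8, 59.3 and 61.8 on the WT arrays. The groups did not overlap, and the spread within each was small. The means were 71.2 ± 2.99 in Scnn1b-Tg and 60.6 ± 1.27 in WT (SD, n = 3 each). The log2 fold change was 0.23 ± 0.05 (SE), 1.17-fold, with an unadjusted p of 0.00197 and an adjusted p of 0.332 in limma. Over 16 alternatives it lay between 0.20 and 0.31, above 0 in all, with adjusted p-values of 0.194 to 0.876. As the groups did not overlap, leaving out arrays, weighting them or subtracting 16 could not turn the sign. Of the rest, only quantile normalization and median centring could have turned it, so the shared sign says little. Of the 6 male germ cell markers, 3 were higher and 3 lower in Scnn1b-Tg, with a median log2 fold change of 0.0007.

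Hspa12b, an atypical HSP70 of endothelial cells, had 162.7, 175.6 and 135.1 on the Scnn1b-Tg arrays, against 145.3, 125.8 and 135.2 on the WT arrays, so that Scnn1b-Tg replicate 3 fell within the WT range (0.21 ± 0.10, SE; adjusted p = 0.867). Of 6 endothelial markers, 1 was higher and 5 were lower in Scnn1b-Tg. Its relative Hspa12a had 42.6, 42.4 and 40.6 on the Scnn1b-Tg arrays, against 42.5, 45.9 and 43.7 on the WT arrays (-0.07 ± 0.05). Hspa14, which sits with a J protein on the ribosome, had 122.1, 117.1 and 123.5 on the Scnn1b-Tg arrays, against 119.5, 114.5 and 112.5 on the WT arrays (0.07 ± 0.05). In both the groups overlapped. Hspa9, the mitochondrial HSP70, had 409.5, 440.2 and 439.0 on the Scnn1b-Tg arrays, against 411.6, 420.4 and 397.9 on the WT arrays (0.07 ± 0.05, adjusted p = 0.929).

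The chaperones of the endoplasmic reticulum differed little between the genotypes. Hspa5, the HSP70 of that compartment known as BiP, had 1606, 1606 and 1437 on the Scnn1b-Tg arrays, against 1523, 1702 and 1420 on the WT arrays. Hsp90b1, its HSP90, had 1700, 1821 and 1639 on the Scnn1b-Tg arrays, against 1701, 1757 and 1686 on the WT arrays. WT replicate 2 was the highest array for Hspa5, by 1.06 times the next, and Scnn1b-Tg replicate 2 was for Hsp90b1. The log2 fold changes were 0.0037 ± 0.08, with a 95% interval of -0.19 to 0.19, and 0.0033 ± 0.05, with an interval of -0.12 to 0.13 (SE; adjusted p = 0.999 and 0.998). Both signs turned under quantile normalization and under median centring, so these values have no settled direction. Dnajb11, a J protein of BiP, had 227.1, 224.6 and 255.4 on the Scnn1b-Tg arrays, against 215.1, 225.9 and 220.3 on the WT arrays (0.09 ± 0.06). Dnajb14, a J protein of the endoplasmic reticulum membrane, had 70.7, 70.4 and 84.3 on the Scnn1b-Tg arrays, against 66.8, 71.0 and 72.8 on the WT arrays (0.09 ± 0.08). For both, Scnn1b-Tg replicate 3 was the highest array. Dnajb9, a further J protein of BiP that is induced by unfolded protein, had a WT range of 0.53 and was highest on WT replicate 2.

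Among small heat shock proteins, Hspb11 lay lower, with 34.3, 33.1 and 33.0 on the Scnn1b-Tg arrays, against 34.7, 36.6 and 39.8 on the WT arrays. The groups did not overlap, although Scnn1b-Tg replicate 1 and WT replicate 1 nearly met (-0.14 ± 0.06, SE; adjusted p = 0.817). Its intensity is low, and without the dimmest genes it was not tested. Of 8 ciliated cell markers, 3 were higher and 5 lower in Scnn1b-Tg, with a median log2 fold change of -0.03. Hspb7, a small heat shock protein of heart muscle, had 41.1, 42.7 and 37.5 on the Scnn1b-Tg arrays, against 46.1, 39.5 and 50.5 on the WT arrays (-0.16 ± 0.10, adjusted p = 0.899). Without WT replicate 2, the lowest WT array, the log2 fold change was -0.26, and without WT replicate 3, the highest, it was -0.08, with adjusted p-values of 0.642 to 1.0 over all 16 alternatives. Cardiac muscle markers, which mouse lung carries in the walls of pulmonary veins, had the same sign between the genotypes: 10 of 11 were lower in Scnn1b-Tg. Their summed intensity was 1331, 1385 and 1086 on the Scnn1b-Tg arrays, against 1413, 1510 and 1708 on the WT arrays. Within WT both Hspb7 and this sum were highest on replicate 3, but Hspb7 was lowest on replicate 2 and the sum on replicate 1. The part of the cardiac markers in the Hspb7 value was not tested.

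Of the BAG proteins and Hspbp1, Bag6, Bag5 and Hspbp1 itself were nearest to a difference. Bag6, which guides tail-anchored and mislocalised membrane proteins, had 151.3, 158.7 and 163.1 on the Scnn1b-Tg arrays, against 143.7, 141.6 and 149.8 on the WT arrays, with no overlap (0.12 ± 0.05, SE; adjusted p = 0.812). Bag5 had 129.5, 138.7 and 138.0 on the Scnn1b-Tg arrays, against 138.7, 159.5 and 150.7 on the WT arrays, and the groups just met without overlap (-0.14 ± 0.06, adjusted p = 0.832). Hspbp1 had 68.7, 69.2 and 71.6 on the Scnn1b-Tg arrays, against 75.2, 70.4 and 79.1 on the WT arrays (-0.10 ± 0.05). Its groups overlapped through WT replicate 2, the lowest WT array. Dnaja4, given above, had a log2 fold change of -0.20 ± 0.12, and of -0.08 without WT replicate 2.

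The other 23 members, among them Bag1, Bag2, Bag4, Dnaja2, Dnaja3, Hspa4, Hspa4l, Hspa13, Hspb2, Hspb6 and the testis-type Hspa1l, Dnajb3, Dnajb7 and Hspb9, had small differences between the genotypes with all arrays. Their log2 fold changes lay between -0.09 and 0.09, 9 above 0 and 14 below, with adjusted p-values of 0.941 to 0.999. Without WT replicate 2 they lay between -0.10 and 0.19, 11 above 0 and 12 below. Hspb8 was then at 0.19, Hspa4 at 0.13, Dnajb2 at 0.11 and Hspa4l at 0.09, against 0.06, 0.07, 0.02 and -0.0010 with all arrays. WT replicate 2 was the highest array for 10 of these 23, for example for Hspa4l, an HSP110 relative, with 125.2, 144.1 and 131.9 on the Scnn1b-Tg arrays, against 113.5, 151.1 and 138.9 on the WT arrays. Hspa4l was picked as an example after its values were seen.

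Genes of neighbouring chaperone systems were counted in the same fit, and 0 were called in limma in any of the lists. Of 20 HSP90 co-chaperones and HSF regulators, 8 were higher and 12 lower in Scnn1b-Tg (median log2 fold change -0.04), with 0 at an unadjusted p under 0.05. The largest values were 0.17 ± 0.14 (SE) for Fkbp5, an immunophilin that glucocorticoids induce, and -0.15 ± 0.09 for Trap1, the mitochondrial HSP90. In this list 8 of 20 were highest on WT replicate 2. Picked after their values were seen, Chordc1, a heat-induced partner of HSP90, had 205.3, 209.7 and 219.1 on the Scnn1b-Tg arrays, against 200.9, 288.7 and 203.3 on the WT arrays. Likewise Ahsa1, the activator of the HSP90 ATPase, had 258.0, 274.9 and 307.8 on the Scnn1b-Tg arrays, against 252.2, 334.8 and 256.6 on the WT arrays.

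For the lists here, the background over all 19935 genes was 10597 higher and 9338 lower in Scnn1b-Tg by sign. At an unadjusted p under 0.05 in limma it was 3.96% higher and 2.05% lower. Of 13 genes of the cytosolic chaperonin CCT and of prefoldin, which fold actin and tubulin, 2 were higher and 11 lower in Scnn1b-Tg (median -0.07). Vbp1, a prefoldin subunit, was the 1 gene of this list at an unadjusted p under 0.05 (-0.18 ± 0.06, SE; adjusted p = 0.684). Of 22 endoplasmic reticulum stress genes 16 were higher and 6 lower (median 0.05), with 2 higher and 1 lower at an unadjusted p under 0.05. Sdf2l1, a BiP cofactor, had 128.1, 136.7 and 144.1 on the Scnn1b-Tg arrays, against 109.3, 98.5 and 101.0 on the WT arrays, with no overlap (0.41 ± 0.06, adjusted p = 0.169). Edem1, which sends misfolded glycoproteins to degradation, gave 0.22 ± 0.08 (adjusted p = 0.778) and Ddit3, the transcription factor CHOP, -0.16 ± 0.06 (adjusted p = 0.764). Of 26 J proteins of class C, 12 were higher and 14 lower (median -0.0025), with Dnajc8 (-0.23 ± 0.05, adjusted p = 0.424) and Dnajc18 (-0.17 ± 0.05, adjusted p = 0.649) lower at an unadjusted p under 0.05. All 15 immediate early genes were higher in Scnn1b-Tg by sign (median 0.14), and Atf3, a stress-induced transcription factor, was the 1 at an unadjusted p under 0.05 (0.26 ± 0.10, adjusted p = 0.764). For 0 of the 15 did all Scnn1b-Tg arrays lie above all WT arrays. Their mean deviation on Scnn1b-Tg replicate 1, -0.15, was below that on WT replicates 2 and 3 (0.08 and -0.11) and above that on WT replicate 1 (-0.21). Of 11 clock genes 2 were higher and 9 lower (median -0.10), with Ciart, a repressor of the clock, at -0.31 ± 0.11 (adjusted p = 0.757).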

How the data were processed

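Each array's deposited column holds 1 intensity for every probe set. Per the submitters' processing notes the authors used RMA; the sources used here give neither its settings nor any added constant. The values themselves show a linear scale. RNA was extracted with Trizol and labelled as whole-transcript sense target, per the labels' protocols. The platform annotation gave 1 symbol to 21780 of 28815 probe sets, several to 1605 and none to 5430; the last 2 kinds were left out, among them 10 probe sets with several symbols of which 1 fits the names used here. The brightest probe set of each gene gave 19935 genes, and the 50 members had 58 probe sets. All 50 matched a RefSeq gene by Entrez identifier.

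For the comparison of genotypes, limma 3.58.1 (R 4.3.3) was run on the log2 intensities of all genes (lmFit, eBayes, no term but genotype, 4 residual and 6.99 total degrees of freedom), two-sided, with Benjamini-Hochberg adjustment and a threshold of 0.05. A log2 range is the highest minus the lowest of 3 arrays. Ranges, ranks and highest arrays are descriptions without a test. The fit was tested on simulated data. The number of arrays limits the precision.

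Members and gene lists were chosen with earlier results of these data known. Every member may be named; values on every array are given for the core chaperones, Hspa5, Hsp90b1, Hspa9, the 8 smallest p-values in each direction, the 6 widest WT and 4 widest Scnn1b-Tg ranges and the 3 brightest members. Outside this rule they are also given for Hspb3, Hspb6 and Hspb8, which complete the members with a promoter match outside the core group. Values are given for Hspa4l, Chordc1, Ahsa1 and Arntl too, and Clock is named, all added after their values were seen. From each list without members up to 3 genes at an unadjusted p under 0.05, or else the 2 largest changes, were named. Counts for the lists of HSP90 co-chaperones, CCT and prefoldin, endoplasmic reticulum stress, class C J proteins, cold-induced genes, immediate early genes and the clock are given in the report; Npas2 of the clock list was not measured alone. Replicates of the same number did not deviate together (r of 0.0257, 0.0284 and 0.0395 across genes), so the numbers were not taken as pairs.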

Additional observations from a re-analysis of the deposited data

How the results depend on the processing

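In all 16 alternatives tried, 0 members were called in limma at an adjusted p under 0.05. Members at an unadjusted p under 0.05 numbered 3, and 5 after quantile normalization, with array weights and without both WT replicate 2 and Scnn1b-Tg replicate 3, 1 without the 6645 dimmest genes, and 1 to 5 with 1 array left out. The median log2 fold change of members, -0.03, was 0.0139 without both arrays and ran from -0.0663 to 0.0317 with 1 left out. Over all genes 1 was called, but 39 without the dimmest genes, 36 with an intensity trend and robust variance, 23 with 16 subtracted before log2, 6 without both arrays, and 0 (without WT replicate 3) to 5 (without Scnn1b-Tg replicate 3) with 1 left out. With the replicate number as a block 3 genes were called; the deviations of each array correlated best with those of the array of its own number in the other genotype, but every r was under 0.1 and the margin as small as 0.0257 against 0.0236, which is no sign of pairing in the design.

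The intensity trend with robust variance, leaving out the dimmest genes and the replicate block cannot alter a member's fold change. Nor can the fit of every probe set, read at the same probe set, or the mean over probe sets where a member has only 1. These fixed values still count among the 415 recomputed fold changes of 26 members, of which 36 changed direction and 0 were called. After quantile normalization these were Hspa8 (0.0162), Hspa5 (-0.0037) and Hsp90b1 (-0.0113); after median centring Hspd1 (-0.0192), Hspa5 (-0.0217) and Hsp90b1 (-0.0222); with the mean over probe sets Hspd1 (-0.0324) and Hspe1 (0.0088); with array weights Hspa8 (0.0163) and Hsph1 (0.0316). Over fits that left out 1 array or both WT replicate 2 and Scnn1b-Tg replicate 3, values ran from -0.6265 to 0.2187 for Hspa1a, from -0.3266 to 0.307 for Hsph1, from -0.299 to 0.0592 for Dnajb1, from -0.2571 to 0.1306 for Hsp90aa1, from -0.1946 to 0.1252 for Hspb1, from -0.3262 to 0.0065 for Dnaja1, from -0.0774 to 0.0903 for Hspa8, from -0.0979 to 0.1078 for Hspd1, from -0.1827 to 0.0976 for Hspe1, from -0.0568 to 0.1274 for Hspa5 and from -0.0387 to 0.0553 for Hsp90b1. Without both arrays Dnajb1 was 0.0452, Hspb1 0.0952 and Hspd1 0.0724. Fits without an array have fewer samples; other causes were not tested. Dim members such as Dnajb3 and Dnajb7 lie near the lowest values, so their fold changes say little.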
